A study of Homo sapiens with 9 samples.

Results

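Small nucleolar RNA host genes were followed as 30 genes out of 59098 annotated on chromosomes 1 to 22 and X. They are every gene in RefSeq GRCh38.p14 whose symbol is SNHG and a number, with GAS5 added by name. For each gene, the length under peaks was measured over its annotated span and 1 kb on each side, called its window here. The measurement was DRIP-seq, in which restriction-cut nucleic acid is immunoprecipitated with S9.6, an antibody that binds DNA:RNA hybrids, and then sequenced. All cells were of the human neuroblastoma line SH-SY5Y and carried a hairpin RNA vector in their genome. The shTDP43 hairpin targets TARDBP, the gene of the nucleic acid-binding protein TDP-43, and the shNC hairpin is a negative control. Each hairpin had 1 library made after 6 h of RNase H, which digests the RNA strand of a hybrid, and 3 untreated libraries. Cells of both hairpins had gone through 2 weeks of puromycin (2 µg/mL) and were then held in 1 µg/mL. The labels do not say whether replicates came from separately transduced cells, so each p-value reflects the spread of these libraries alone, which may be technical. Peak lists hold no RNA levels, so the knockdown of TARDBP was not checked here.

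Small nucleolar RNAs guide the chemical modification of ribosomal and other noncoding RNAs, and most are cut out of the introns of longer host transcripts. Box C/D snoRNAs guide methylation of the ribose, and box H/ACA snoRNAs guide conversion of uridine to pseudouridine. The spliced exons of many SNHG genes have no long reading frame and are degraded by nonsense-mediated decay. An R-loop is the structure in which nascent RNA pairs with its DNA template, and such hybrids are often found near transcription starts and over G-rich transcribed stretches.

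The start regions of several host genes show in their letters where peaks began or ended. The sequences below are RefSeq GRCh38.p14 promoter windows, from 250 bases before to 50 after the annotated start, read in the direction of the gene. Promoter windows were found for 26 of the 30 genes, and SNHG33 had 2, giving 27. SNHG12 at chr1:28581824-28582123 on the minus strand is shown because peaks covered all of it in all 6 untreated libraries, and its capitals mark CG dinucleotides.
SNHG12: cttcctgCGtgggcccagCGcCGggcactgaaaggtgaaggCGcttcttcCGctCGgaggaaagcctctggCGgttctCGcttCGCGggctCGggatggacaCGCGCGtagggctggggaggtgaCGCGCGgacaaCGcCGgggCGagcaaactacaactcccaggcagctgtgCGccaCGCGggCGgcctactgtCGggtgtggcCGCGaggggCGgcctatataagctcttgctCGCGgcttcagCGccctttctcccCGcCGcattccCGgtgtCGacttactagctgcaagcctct
In the next 4 windows the capitals mark recognition sites of enzymes used to cut the nucleic acid. GAS5 lies at chr1:173868996-173869295 on the minus strand, and SNHG29 at chr17:16438737-16439036 on the plus strand. Both hold a site of EcoRI, whose letters are GAATTC.
GAS5: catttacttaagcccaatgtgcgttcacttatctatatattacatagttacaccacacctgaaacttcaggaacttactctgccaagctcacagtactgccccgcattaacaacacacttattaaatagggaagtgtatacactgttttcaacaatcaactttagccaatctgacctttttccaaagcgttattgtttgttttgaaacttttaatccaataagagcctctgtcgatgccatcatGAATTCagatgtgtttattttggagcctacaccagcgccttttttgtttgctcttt
SNHG29: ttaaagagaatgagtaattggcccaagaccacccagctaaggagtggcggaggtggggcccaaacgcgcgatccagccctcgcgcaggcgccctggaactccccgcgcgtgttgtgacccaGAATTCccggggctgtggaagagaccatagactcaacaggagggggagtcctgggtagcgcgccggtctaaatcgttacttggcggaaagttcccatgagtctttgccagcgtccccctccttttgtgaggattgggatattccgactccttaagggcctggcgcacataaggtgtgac
SNHG32 at chr6:31834666-31834965 on the plus strand holds a site of SspI, AATATT. SNHG19 at chr16:2155309-2155608 on the minus strand holds a site of HindIII, AAGCTT.
SNHG32: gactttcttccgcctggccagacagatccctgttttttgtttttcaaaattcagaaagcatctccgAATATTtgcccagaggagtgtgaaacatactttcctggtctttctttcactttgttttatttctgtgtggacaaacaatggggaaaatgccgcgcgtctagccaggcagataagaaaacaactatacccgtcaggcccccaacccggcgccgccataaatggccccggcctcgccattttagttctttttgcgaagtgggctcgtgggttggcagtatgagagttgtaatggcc
SNHG19: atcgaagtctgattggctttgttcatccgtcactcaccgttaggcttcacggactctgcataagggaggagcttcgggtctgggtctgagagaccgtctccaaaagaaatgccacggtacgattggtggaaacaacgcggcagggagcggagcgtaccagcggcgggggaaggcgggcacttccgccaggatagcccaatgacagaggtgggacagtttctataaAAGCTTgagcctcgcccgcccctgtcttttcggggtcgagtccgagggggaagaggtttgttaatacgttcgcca

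In GAS5 the peaks stopped at the EcoRI site in every untreated library. The peak edge lay at chr1:173869050, base 5 of the site as read on the plus strand, in 6 of 6 libraries. In the direction of the gene, that site ends directly before the annotated first base of GAS5, and 55 of the 300 promoter bases were covered in each of the 6 libraries. In SNHG29 the peaks began at chr17:16438859, base 2 of its EcoRI site, in 6 of 6 libraries, and 178 promoter bases were covered in each. EcoRI cuts between the first and second base of its site on each strand. The SNHG32 peaks began at base 4 of the SspI site in 5 of 6 libraries, with 231 promoter bases covered, while shTDP43 replicate 1 had no peak there. SspI cuts in the middle of its site. In SNHG19 a peak ended at base 5 of the HindIII site in shTDP43 replicate 1 alone, and peaks ran across the whole window in the other 5 libraries. SNHG11 held an SspI site with no peak edge in it. The nucleic acid was cut before it was immunoprecipitated, so a peak edge at a site need not be the end of a hybrid. Covered length is therefore the length under peaks, and where the hybrids themselves ended was not tested. Over all promoters, 13.7% of 9307 sites of the 5 enzymes (both strands; the others are BsrGI, TGTACA, and XbaI, TCTAGA) held a peak edge in at least 1 untreated library, against 0.509% of all 6-base stretches. At least 1 such site lay in 18.5% of the 27 host gene promoters and in 22.6% of all 34961.

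Peaks lay over most of these host genes. Of the 30 genes, 27 (90.0%) had a peak in at least 1 untreated library and 21 (70.0%) had one in all 6. The same shares were 31.0% and 20.5% of 18177 long noncoding RNA genes, 70.6% and 59.9% of 19974 protein-coding genes, and 39.6% and 29.8% of all genes. The median host gene had 55.7% of its window under peaks, averaged over the 6 libraries, and a median span of 5.05 kb. Protein-coding genes had a median of 5.61% with a median span of 24.2 kb, and these shares were not matched for span or for RNA level. Without shTDP43 replicate 1, the shallowest untreated library, 24 host genes had a peak in all 5 remaining libraries.

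**Figure D1:**
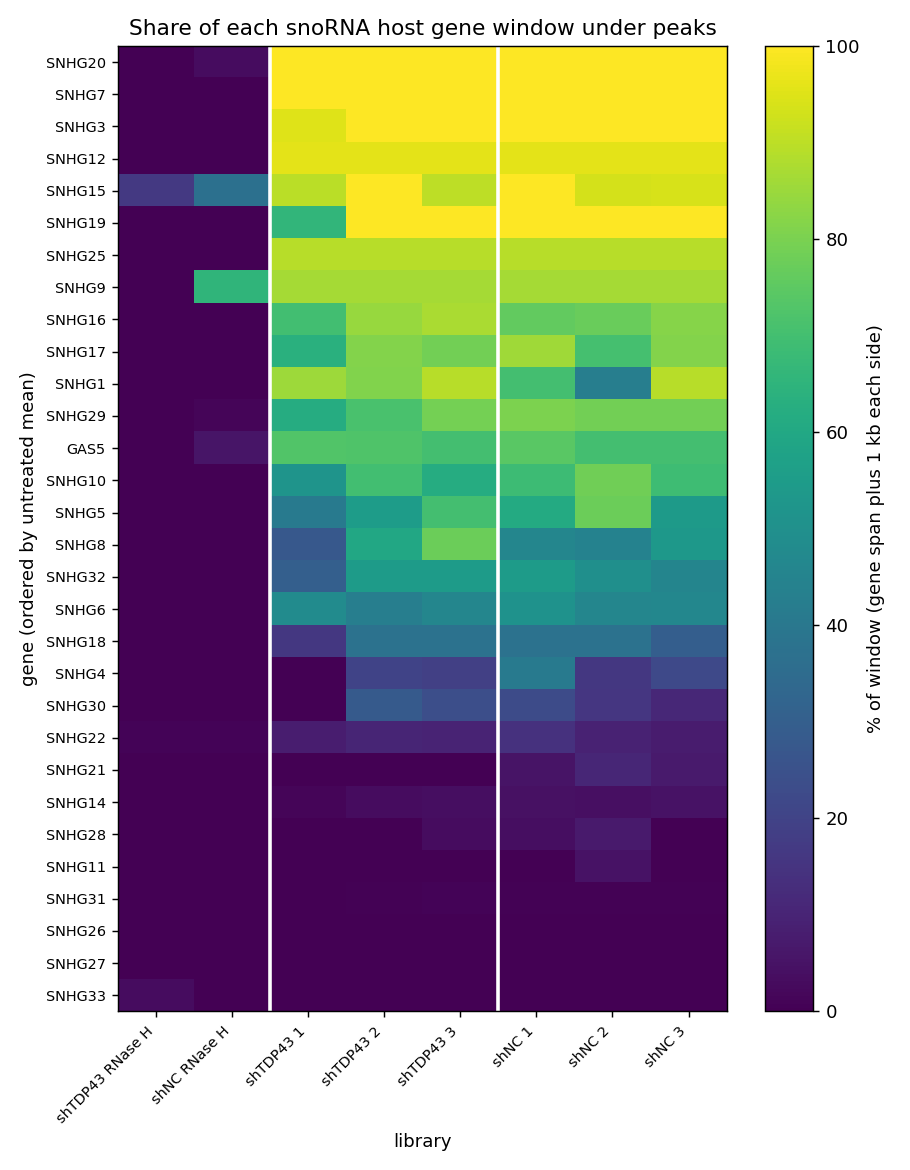
Share of each host gene window (gene span plus 1 kb each side) under peaks, in percent by colour, with genes in rows and the 8 libraries in columns. SNHG20 and SNHG7 were at 100.0% in all 6 untreated libraries, while the RNase H columns were empty for most genes.

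Read totals were not used here, and relative depth was read from the peak lists. The lowest background pileup that solved a peak's fold and p-value was 1.05, 1.68 and 1.94 reads in the shTDP43 libraries and 2.01, 1.93 and 1.62 reads in the shNC libraries. It was 0.991 in the RNase H-treated shTDP43 library and 0.936 in the RNase H-treated shNC library. Untreated lists covered 91.6 to 130.9 Mb in shTDP43 and 125.45 to 141.96 Mb in shNC, with shTDP43 replicate 1 the shortest. Of 6 adrenergic neuroblastoma markers, 5 had peaks in all 6 untreated libraries and TH had none in any library. Of 5 mesenchymal markers, 2 had peaks in all 6, while PRRX1 and COL1A1 had none in an untreated library. A peak does not measure expression, so these are positions of hybrids only.

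The genes most fully covered were compact hosts of 1 to 4 snoRNAs. SNHG20 on chromosome 17, host of SCARNA16, had 8344 bp under peaks in each shTDP43 and each shNC library, its whole window. SNHG7 on chromosome 9, host of SNORA17A and SNORA17B, had 5591 bp in each of the 6, also its whole window. Coverage in these windows was at its ceiling, so covered length could not show a gain of hybrid there. SNHG12, host of SNORA44, SNORA61, SNORA16A and SNORD99, had 6193 bp in each of the 6 libraries. SNHG3, host of the SNORA73 pair, had 6614, 6950 and 6950 bp in shTDP43 and 6950 bp in each shNC library. Its span lies almost wholly within that of RCC1, a protein-coding gene. SNHG15, host of SNORA9, had 5084, 5674 and 5101 bp in shTDP43 and 5674, 5313 and 5331 bp in shNC. The groups of SNHG3 and SNHG15 overlapped. SNHG9 and SNHG25 also had the same covered length in all 6 libraries, 2174 and 2088 bp. Lengths were thus identical for 5 of the 25 host genes tested, because peaks there ran past the window or stopped at the same base.

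SNHG9, host of SNORA78, lay under part of one of the strongest peaks in each untreated list. Per the authors' deposited values the fold enrichment of this peak was between 58.9 and 100.8 in the untreated libraries. Between 0.0927% and 0.196% of the peaks in the same list ranked above it by q. The summit, where these values are read, lay outside the SNHG9 window in every untreated library, between chr16:1960215 and chr16:1963697. That peak was 7046 to 7308 bp wide and also covered RPS2, a ribosomal protein gene beside it. The strongest SNHG15 peak had a fold between 28.7 and 69.5, with 0.179% to 0.514% of peaks above it. Its summit lay past the SNHG15 window in shNC replicates 1 and 2 and in shTDP43 replicate 2. SNHG19, host of SNORD60, had a fold between 49.5 and 67.0 in peaks at least 13252 bp wide that extended into neighbouring genes. The median peak of an untreated library was 650 to 756 bp wide. At the other end, the strongest SNHG4 peak ranked below 36.4% to 90.1% of its list in the 5 libraries that had one.

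Peaks carry no strand, and 22 of the 30 windows held part of a protein-coding gene, with 13 spans sharing bases with one. In those windows the hybrid cannot be assigned to the host transcript or to the neighbour.

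The longest covered lengths belonged to SNHG29, SNHG14, SNHG17, SNHG20 and SNHG16. SNHG29, host of SNORD49A, SNORD49B and SNORD65, had 20867, 24002 and 26673 bp in shTDP43 and 27020, 26522 and 26447 bp in shNC. SNHG17, host of SNORA71 copies, had 10598, 13642 and 13164 bp in shTDP43 and 14325, 11807 and 13602 bp in shNC. In both genes the lowest value was shTDP43 replicate 1 and the groups overlapped. GAS5, named for its accumulation in growth-arrested cells and host of 11 annotated snoRNAs, had 5204, 5179 and 5016 bp in shTDP43 and 5327, 5005 and 5016 bp in shNC. Its 6 values lay close together and overlapped.

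The remaining 5 genes did not reach the mean of 500 bp over the 6 untreated libraries that the test required. SNHG26 and SNHG27 had no peak in any library. SNHG33 had none in an untreated library and 360 bp in the RNase H-treated shTDP43 library. SNHG11 had 303 bp in shNC replicate 2 alone. SNHG21, host of SCARNA15, had 0 bp in each shTDP43 library and 472, 918 and 617 bp in the shNC libraries. Its groups did not overlap, with less coverage in shTDP43, as for 11.7% of genes with a peak in any untreated library. The filter left it untested. With no filter the same limma fit gave it an adjusted p of 0.0693 by Benjamini-Hochberg over all genes with a peak.

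Host gene starts were covered more often than their upstream flanks. At the annotated start, 62.8% ± 8.01 of 26 host genes lay under a peak in shTDP43 and 67.9% ± 2.22 in shNC (SD, n = 3 each). For protein-coding genes the values were 43.1% ± 5.64 in shTDP43 and 48.2% ± 2.32 in shNC, and for long noncoding RNA genes 17.5% ± 2.06 in shTDP43 and 19.5% ± 0.79 in shNC (SD, n = 3 each). The profile over host genes stayed high downstream. At 5 kb past the start, 46.2% ± 7.69 of them were covered in shTDP43 and 39.7% ± 2.22 in shNC, against 19.0% ± 2.95 of protein-coding genes in shTDP43 and 20.7% ± 0.87 in shNC. At 5 kb before the start it was 12.8% ± 2.22 in shTDP43 and 15.4% ± 0.00 in shNC. The ranges of shTDP43 and shNC are 3 libraries each on the same 26 genes, and no test was made between gene classes.

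**Figure D2:**
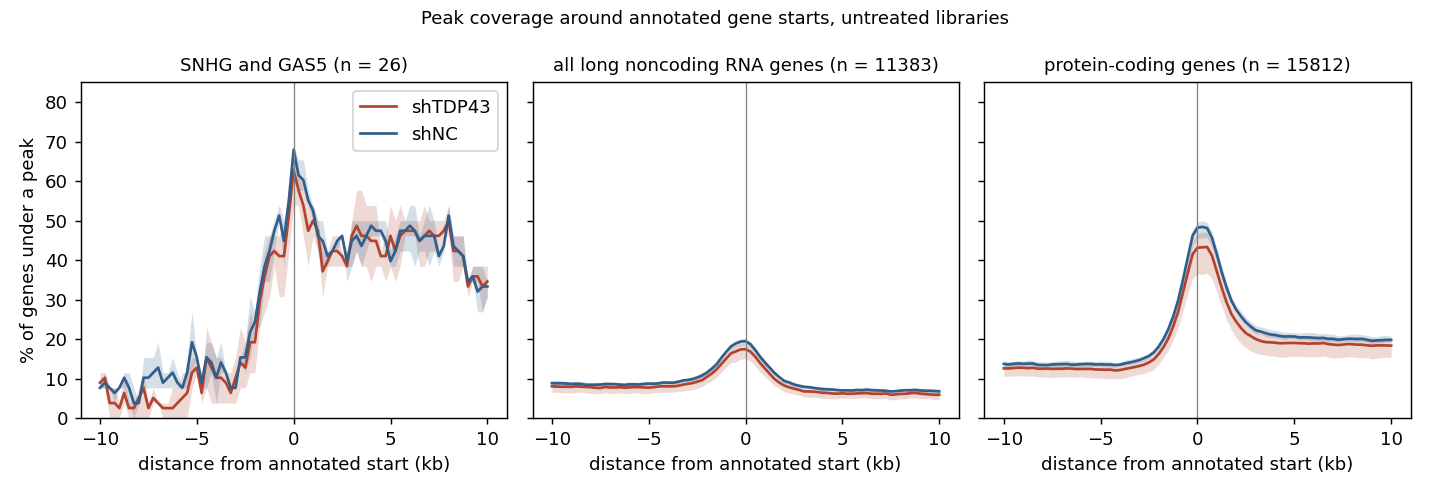
Percent of genes with a peak over each position from 10 kb before to 10 kb after the annotated start, in 3 panels of host genes, long noncoding RNA genes and protein-coding genes; lines are means of 3 untreated libraries and bands their range. Host genes reached 62.8% in shTDP43 and 67.9% in shNC at the start and at 5 kb downstream were at 46.2% in shTDP43 and 39.7% in shNC.

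The promoter windows of host genes were rich in G and C. Their median GC content was 62.7%, against 58.7% over all promoters, and their median number of CG dinucleotides was 24, against 14. Of the 27 windows, 9 (33.3%) lay fully under peaks in all 6 untreated libraries and 7 (25.9%) under no untreated peak, against 23.3% and 55.1% of all 34961. The 9 were those of SNHG3, SNHG12, SNHG8, SNHG7, SNHG10, SNHG16, SNHG20, SNHG22 and SNHG17. GC content did not order the host gene windows: SNHG20 had 55.3% GC and was fully covered, whereas SNHG27 had 68.3% GC and no peak. The median was 62.3% in the 9 fully covered windows and 63.3% in the 7 under no untreated peak. Over all promoters it was 67.7% in fully covered windows and 49.7% in those under no untreated peak. GAS5 had the lowest GC content of the set, 37.7%, with 5 CG dinucleotides. A GGGG run on either strand was present in all 27 windows and in 89.7% of all promoters. Transcripts of many snoRNA host genes begin with a C and a run of pyrimidines, the terminal oligopyrimidine tract known from ribosomal protein genes. A C at the start that opened a run of at least 5 pyrimidines, the C included, was read in 6 of the 27 windows (22.2%). These were those of SNHG12, SNHG18, SNHG4, SNHG32, SNHG5 and SNHG19, and the share over all promoters was 4.08%. Of these 6, only SNHG12 was fully covered in all 6 libraries and SNHG4 had no promoter peak.

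Outside SNHG14, peaks often covered the snoRNA sequences themselves. RefSeq places 149 snoRNA genes within the host spans, 84 of them in SNHG14. Of the 65 in the other host genes, 30 (46.2%) lay fully under peaks in all 6 untreated libraries and 18 (27.7%) touched none. Over all 149, SNHG14 included, 31 (20.8%) lay fully under peaks in all 6 and 92 (61.7%) touched none. The 1076 snoRNA genes elsewhere in the genome had 12.5% and 77.7%. These shares were not matched for the coverage around each snoRNA, and the median host gene had 55.7% of its window under peaks. All snoRNAs were under peaks in all 6 libraries in SNHG12 (4 of 4), SNHG29 (3 of 3) and SNHG7 (2 of 2). In GAS5, 8 of 11 were. SNHG1, host of SNORD22 and SNORD25 to SNORD31, had 9, 9 and 9 of its 9 under peaks in shTDP43 and 7, 4 and 9 in shNC. Both SNORD50 copies of SNHG5 and the SNORD87 of SNHG6 lay outside peaks in every library, although both hosts had peaks in all 6.

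SNHG14 stood apart in size and layout. It is a paternally expressed transcript on chromosome 15 that runs antisense over UBE3A and carries the SNORD116 and SNORD115 arrays, and loss of the paternal SNORD116 copies is linked to Prader-Willi syndrome. R-loops over the Snord116 repeats have been described in mouse neurons. The span, chr15:24823608-25419462, had 33 separate stretches under peaks in the untreated libraries, 5 of them present in all 6. The SNORD116 cluster of 30 copies, chr15:25051476-25108352, held the longest mean covered length of the segments compared, in shTDP43 as in shNC. The SNORD115 cluster of 48 copies, chr15:25170723-25269858, had no peak in any of the 8 libraries. The 62.4 kb between the clusters had none either. SNORD116-5 lay under peaks in all 6 untreated libraries, while 20 of the 30 copies touched none. The stretch at the SNURF and SNRPN start, chr15:24954783-24956919, had peaks in all 6.

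**Figure D3:**
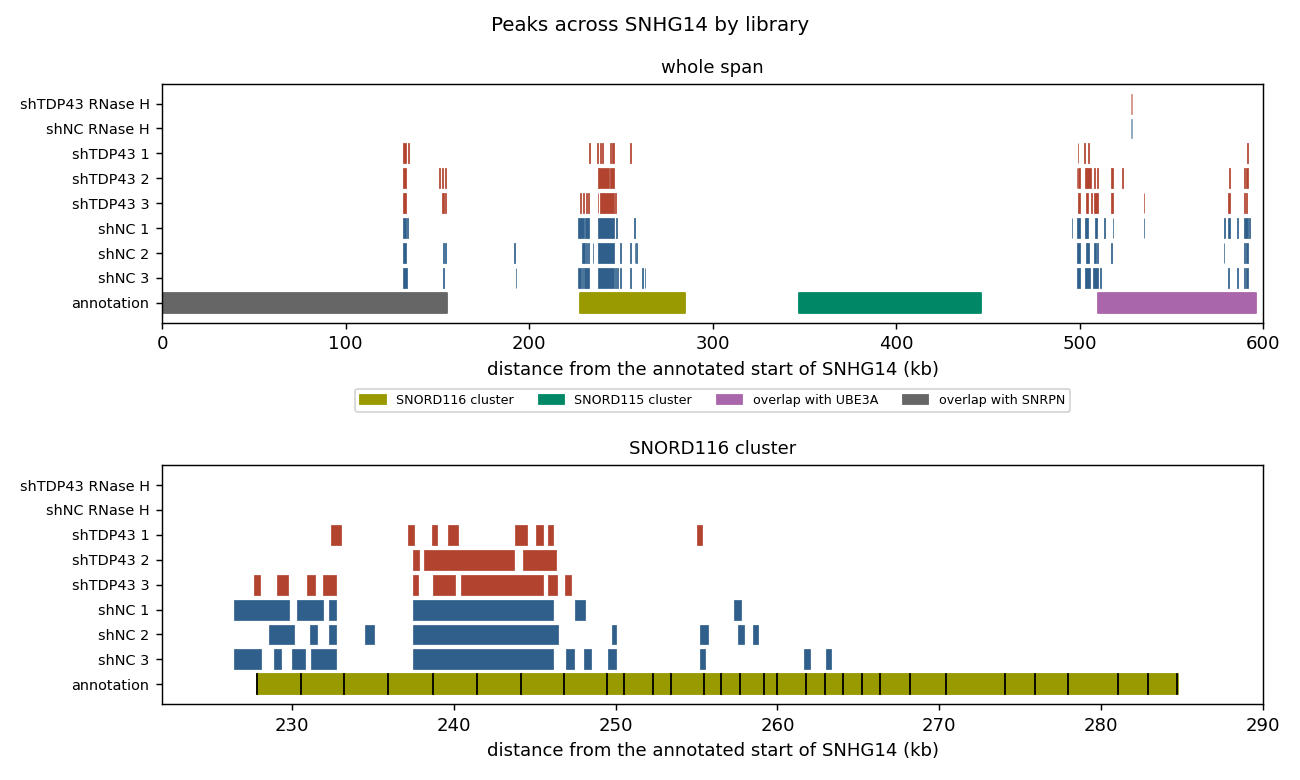
Peaks across SNHG14 in each of the 8 libraries, by distance in kb from its annotated start, for the whole span and for the SNORD116 cluster (ticks: SNORD116 copies). Most peaks fell in 3 zones and none lay over the SNORD115 cluster. The block in the first part of the SNORD116 cluster was broken into shorter peaks in shTDP43.

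Within the SNORD116 cluster, covered length was 3633, 7970 and 9865 bp in shTDP43 and 13664, 13248 and 14203 bp in shNC. Every shTDP43 value was below every shNC value, as was so for the windows of 13.1% of genes tested. The mean was 7156 ± 3195 bp in shTDP43 and 13705 ± 479 bp in shNC (SD, n = 3 each), which is 12.6% of the cluster in shTDP43 and 24.1% in shNC. The difference of -6549 bp had a two-sided exact permutation p of 0.1, the smallest that 3 against 3 libraries can give. This segment was chosen after its values were seen, so the p is a description. Scaled to equal library totals, the difference was -5784 bp with the same p. It was -4788 bp without shTDP43 replicate 1. In the rest of the SNHG14 span the covered length was 4480, 12114 and 11894 bp in shTDP43 and 14349, 10187 and 13971 bp in shNC, and there the groups overlapped.

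The comparison of shTDP43 with shNC asked where hybrid coverage differs between the knockdown and control cells. No host gene changed in coverage past the threshold. Covered lengths were scaled to the median library total, moved to log2(bp + 100) and tested with limma over all 19132 genes that passed the filter. At a Benjamini-Hochberg adjusted p below 0.05, 0.146% of genes tested had more coverage in shTDP43 and 0.554% had less, 0.7% in either direction, and 0 of the 25 host genes were among them. At an unadjusted p below 0.05 the fit held 10.7% of all genes tested and 1 of the 25 host genes, SNHG14. With centring on the median gene or with cyclic loess, the number of host genes called was also 0. Adjusted p-values of the host genes lay between 0.401 and 0.988.

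SNHG14 had 8113, 20084 and 21759 bp over its window in shTDP43 and 28013, 23435 and 28174 bp in shNC. All 3 shTDP43 values were below all 3 shNC values, and shTDP43 replicate 1 was far the lowest. The log2 change was -0.60 ± 0.23 (SE), with a limma adjusted p of 0.401. Without shTDP43 replicate 1 the log2 change was -0.31. With peaks of −log10 q 5 or more it was -1.21 ± 0.58 (adjusted p = 0.651), and with those of 10 or more -3.51 ± 1.35 (adjusted p = 0.700). The strongest SNHG14 peak of shTDP43 replicate 1 had a −log10 q of 6.58, so that library was empty there at 10 or more. Groups that do not overlap, with less coverage in shTDP43, were found for 13.1% of genes tested, and SNHG14 was 1 of 25 host genes (4.0%). After scaling it was again the 1 gene of 25, against 9.83% of genes tested. More coverage in shTDP43 with no overlap, unscaled, was found for 0 of 25 host genes and 0.857% of genes tested. Of the coding genes that share bases with it, SNRPN and UBE3A had log2 changes of opposite sign, 0.46 ± 0.17 for SNRPN (adjusted p = 0.360) and -0.26 ± 0.23 for UBE3A (adjusted p = 0.659), neither past the threshold. In bulk nucleic acid, hybrids in fewer cells and shorter or rarer hybrids in each cell cannot be told apart.

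SNHG1 had the largest positive log2 change among the tested host genes. It had 5048, 4778 and 5278 bp in shTDP43 and 4135, 2536 and 5269 bp in shNC. The shNC values were spread, with replicate 2 far below replicate 3, and the groups overlapped. The log2 change was 0.58 ± 0.28 (SE), with an adjusted p of 0.528, and it was 0.31 without shNC replicate 2 and 1.03 with peaks of −log10 q 5 or more. The promoter of SNHG1 showed the same library: all 300 bases were covered in 5 libraries and 0 in shNC replicate 2.

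SNHG16, a transcript first described in aggressive neuroblastoma and host of SNORD1A, SNORD1B and SNORD1C, had 6678, 8089 and 8364 bp in shTDP43 and 7269, 7398 and 7858 bp in shNC. The unscaled groups overlapped. The log2 change was 0.22 ± 0.12 (SE), adjusted p = 0.593. After scaling, its groups no longer overlapped, with more coverage in shTDP43, as did those of 7.09% of genes tested. SNHG4, host of SNORA74 copies within the span of MATR3, had 0, 2575 and 2408 bp in shTDP43 and 5232, 2058 and 2819 bp in shNC. One empty library set its log2 change of -1.85 ± 1.18 (SE), adjusted p = 0.653, which was -0.29 without shTDP43 replicate 1. SNHG20, with equal lengths in all 6 libraries, had a log2 change of 0.19 ± 0.16 that came from scaling alone.

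**Figure D4:**
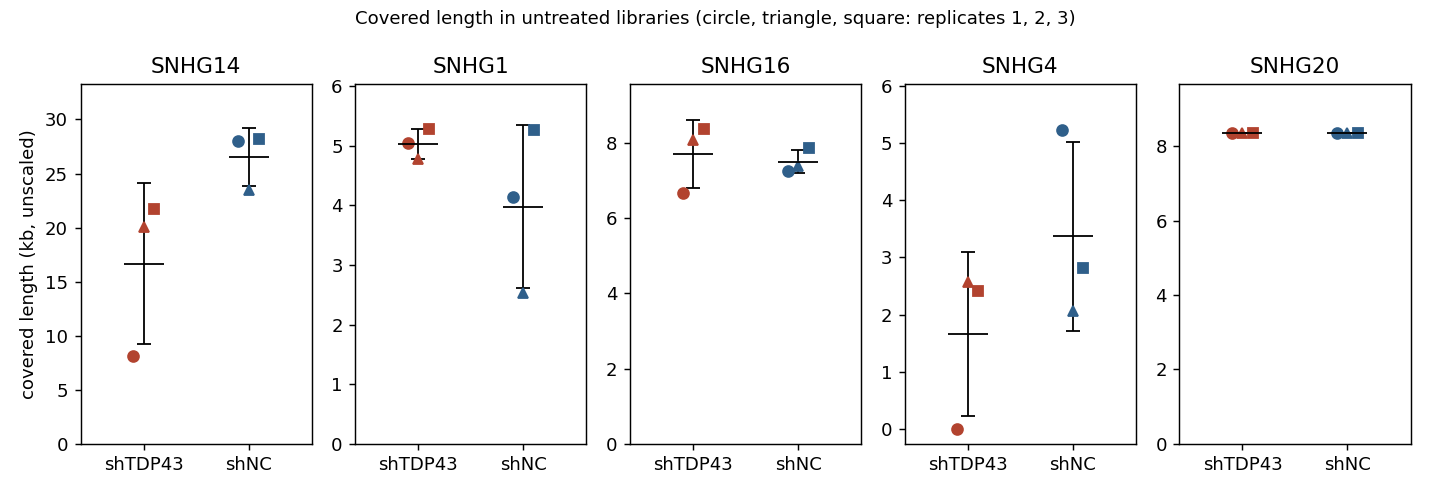
Unscaled covered length in kb of the 5 host genes with the smallest p-values, in the 3 shTDP43 and 3 shNC untreated libraries; points are libraries, and black bars give the mean and SD. SNHG14 was lower in all 3 shTDP43 libraries, and shTDP43 replicate 1 had no peak in SNHG4.

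The scaling also set the direction of the group as a whole. Scaled, the median log2 change of the 25 host genes was 0.10, with 16 above 0, and that of all 19132 genes was 0.06. Unscaled, the medians were -0.09 for the host genes, with 4 above 0 and 16 below, and -0.13 for all genes. Those with short or missing coverage in 1 or more libraries had the widest errors, such as SNHG28 with 0, 0 and 782 bp in shTDP43 and 846, 1609 and 0 bp in shNC.

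**Figure D5:**
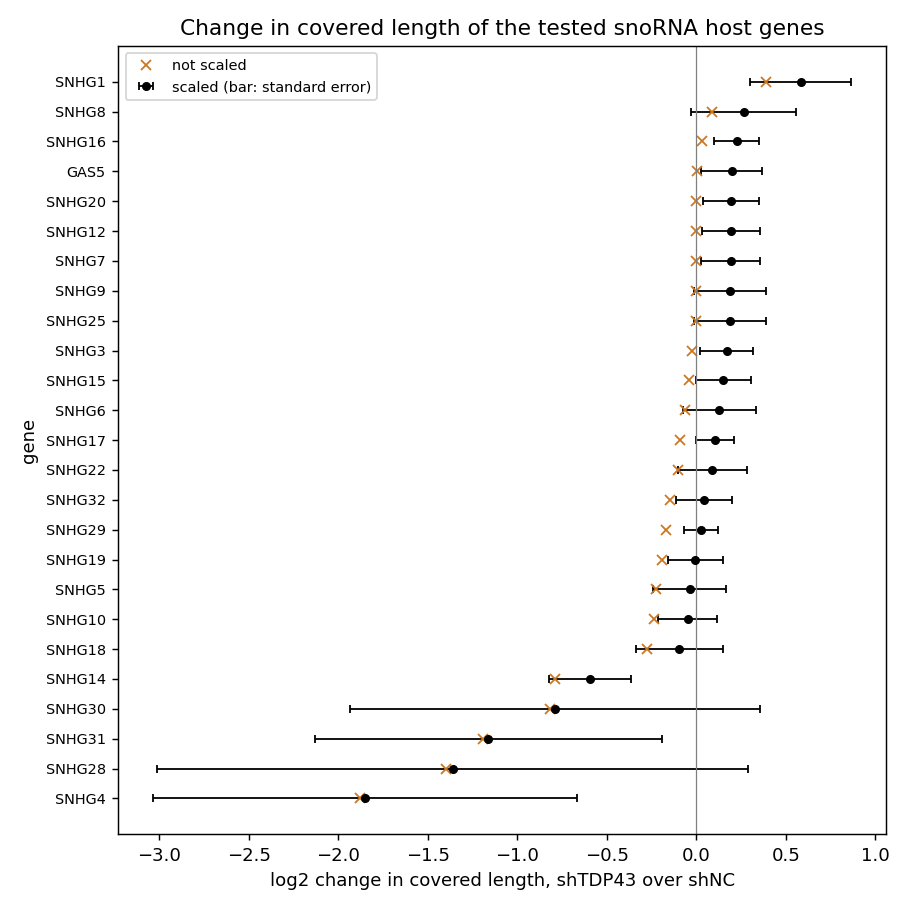
Log2 change in covered length, shTDP43 over shNC, of the 25 tested host genes, with standard errors for scaled values (circles) and the unscaled values as crosses. Most scaled values lay just above 0, and unscaled values lay to their left.

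Few peaks lay in the host genes after RNase H. In the shTDP43 hairpin cells, summed covered length over the 30 windows was 2604 bp in the RNase H-treated library, against 107776, 140324 and 145870 bp in the untreated libraries. In the shNC hairpin cells it was 5905 bp after RNase H, against 156236, 142757 and 147892 bp. Peaks lay in 4 of 30 host genes in the treated shTDP43 library, where 8.37% of all annotated genes had one, and in 8 of 30 in the treated shNC library, where 13.1% had one. Of the 25 tested genes these were 3 (12.0%) in shTDP43, where 18.9% of all genes tested had a peak, and 8 (32.0%) in shNC, where the share was 30.0%. Both treated libraries held a peak in 3 of the 25 (12.0%), SNHG15, SNHG14 and SNHG22, against 15.9% of genes tested. Each treated library stands alone, so these counts have no replicate check, and the 2 treated lists differ in covered length over the whole genome (5.66 Mb in shTDP43, 10.51 Mb in shNC).

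SNHG15 had the longest coverage after RNase H, 950 bp in the treated shTDP43 library and 2084 bp in the treated shNC library, against 5084 to 5674 bp in untreated libraries. SNHG9 had 0 bp in the treated shTDP43 library and 1642 bp in the treated shNC library. SNHG22, host of SCARNA17, had 350 bp after RNase H in shTDP43 and 372 bp in shNC. These treated peaks lay within chr18:49822362-49822733, where no untreated library had a peak. Elsewhere in the SNHG22 window the untreated libraries had 3196, 3991 and 3910 bp in shTDP43 and 5508, 3717 and 3020 bp in shNC. In SNHG14 the treated peaks, 944 bp in shTDP43 and 610 bp in shNC, lay within the part shared with UBE3A, at a position where no untreated library had a peak. In GAS5, SNHG29, SNHG20 and SNHG16 the treated shTDP43 library had 0 bp, and the treated shNC library had 406 bp in GAS5, 470 bp in SNHG29, 291 bp in SNHG20 and 30 bp in SNHG16. Whether the treated peaks hold undigested hybrid was not tested.

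Other genes of the snoRNA pathway gave no call either. Of 18 tested genes for proteins of snoRNA particles and their assembly, 0 passed the adjusted threshold, with a median log2 change of 0.12. An unadjusted limma p below 0.05 was found for 2 of the 18, against 10.7% of all genes tested. A value that misses the threshold does not show that coverage was equal. FBL, the methyltransferase of box C/D particles, had 5488, 8697 and 8457 bp in shTDP43 and 7051, 6355 and 6680 bp in shNC, a log2 change of 0.33 ± 0.11 (adjusted p = 0.305). NAF1, an assembly factor of H/ACA particles, had 3491, 4804 and 5809 bp in shTDP43 and 3873, 3920 and 4416 bp in shNC, a log2 change of 0.37 ± 0.15 (adjusted p = 0.434). In both genes shTDP43 replicate 1 was the lowest library and the groups overlapped. Of 41 protein-coding genes that host snoRNAs in introns, all had peaks in all 6 untreated libraries, 7 were covered over the whole window in all 6, and none was called. Their median log2 change was 0.19. RACK1, a scaffold protein bound to the small ribosomal subunit, had 6425, 6823 and 7250 bp in shTDP43 and 7077, 4890 and 5976 bp in shNC, a log2 change of 0.40 ± 0.16 (adjusted p = 0.441). RCC1, which shares its start region with SNHG3, had 27667, 29990 and 31489 bp in shTDP43 and 30099, 29468 and 28307 bp in shNC, a log2 change of 0.21 ± 0.11 (adjusted p = 0.544). The groups overlapped in both genes. The other noncoding hosts ZFAS1, DANCR, EPB41L4A-AS1 and MEG8 also had no call. EPB41L4A-AS1 had 2212, 2981 and 2981 bp in shTDP43 and 2671, 2479 and 2479 bp in shNC, a log2 change of 0.27 ± 0.14 (adjusted p = 0.569). DANCR had 5859, 5859 and 6147 bp in shTDP43 and 5859 bp in each shNC library, a log2 change of 0.22 ± 0.16 (adjusted p = 0.659). The groups overlapped in EPB41L4A-AS1, and 5 of 6 DANCR values were equal.

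Among 9 tested factors of nonsense-mediated decay, none passed the threshold and the median log2 change was 0.10. SMG6, the endonuclease of that pathway, had 9262, 18149 and 16235 bp in shTDP43 and 27004, 23230 and 25179 bp in shNC. All 3 shTDP43 values were below all 3 shNC values, as for 13.1% of genes tested. The log2 change of SMG6 was -0.65 ± 0.13 with a limma adjusted p of 0.0969. SMG5, an adaptor that recruits decay enzymes, had 24710, 32080 and 33363 bp in shTDP43 and 32165, 29415 and 31175 bp in shNC, overlapping groups. Its log2 change was 0.14 ± 0.07 (adjusted p = 0.552), and this value turned to -0.052 with no scaling.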

How the data were processed

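Each of the 8 libraries with a peak list has a list made separately, in MACS2 narrowPeak layout, as the peak names in the deposited lists show, and 1 input library named in the labels was not analysed here. Per the submitters' processing notes the build was hg38, alignment and peak tools included MACS2 2.2.6 and Bowtie2 2.4.4, and SAMtools was used; settings and the control for peak calling are not given in the sources used here. The authors' deposited columns are a score, a fold ratio over background, and −log10 p and −log10 q values, and the start, end and summit offset of each peak are positions. These values were used only within a list. With peaks but no counts of reads, no count test applies, and no interval or floor for depth is given.

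Covered bp per window (RefSeq GRCh38.p14 span plus 1 kb each side) was scaled to the median library total, moved to log2(bp + 100) and fitted with limma 3.58.1 in R 4.3.3 (variance trend, Benjamini-Hochberg adjustment over 19132 genes of every type with a mean of at least 500 bp over the 6 untreated libraries). A fold change on this scale understates the change of short lengths. The script was tested on simulated data, where it recovered 38% of changes of 1 on the log2 scale and 67% of larger ones. Of its 109 calls there, 4 were false. Single segments were tested with an exact permutation test (scipy 1.17.1). The labels do not say whether the same replicate number marks paired libraries, so the fit used no pairing.

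Values in every library are given for the 5 host genes with the smallest p, the 5 with the longest covered length, the 5 with the highest covered share and those with a peak after RNase H, and for the 2 smallest p in each other list apart from the cell type markers. The host genes and lists were chosen with earlier results of these data known. Others named were chosen after their values were seen. Alternatives covered scaling, pseudocount, filter, peak strength, window, features, variance trend, replicate block and left-out libraries.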

Additional observations from a re-analysis of the deposited data

How the results depend on the processing

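No host gene was called under any alternative except the removal of peaks that overlap a peak of the RNase H library of the same hairpin. That alternative called 6 of 23 host genes, and by its construction a whole untreated peak is lost to a short treated one, with 15504 treated peaks in shNC and 8868 in shTDP43. It took SNHG20 to a log2 change of 6.47 and SNHG16 to 1.39, and over all genes it called 1473 with more and 873 with less coverage. Against 28 with more and 106 with less in the fit as reported, the counts of all genes were 4 and 41 with no scaling, 16 and 53 at a pseudocount of 10 bp, 2 and 28 with peaks of −log10 q 5 or more, and 4 and 53 with those of 10 or more. With less coverage there were 191 at a pseudocount of 500 bp, and with more there were 12 with no variance trend. The replicate block gave 12 with more and 56 with less. The deviations of same-numbered libraries correlated at -0.173, 0.0132 and -0.154, and those of differently numbered libraries at -0.137 to 0.194. The labels do not say whether the numbers pair, and deviations within groups of 3 libraries cannot settle it. Leaving out 1 library gave 1 to 41 genes with more and 1 to 150 with less coverage (1 and 1 without shNC replicate 1, 3 and 15 without replicate 2, 1 and 2 without replicate 3; 14 and 13 with more without shTDP43 replicate 2 or 3), and fits with 2 libraries in an arm assume the same spread. Host genes with a peak in all untreated libraries numbered 21 to 24 over the left-out libraries, an alternative added after seeing the data. After RNase H, a minimum of 500 bp left 2 host genes in shTDP43 and 3 in shNC, and a −log10 q of at least 5 left 1 in shTDP43 and 5 in shNC. Signs reversed for FBL (-0.29) and EPB41L4A-AS1 (-0.10) at a −log10 q of at least 10, and for SMG5 with no scaling (-0.052) and without peaks also called after RNase H (-0.040). The causes were not tested. The SNORD116 difference was -7904 to -4788 bp over the left-out libraries and -5664 bp at a −log10 q of at least 5. Peak presence can be limited by depth, which was not measured by read totals. The background pileup read in its place was lowest in the RNase H-treated libraries and, among the untreated, in shTDP43 replicate 1. How far it set the presence of peaks was not tested. Length at its ceiling cannot show a gain.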

Other observations

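Peak edges repeated to the exact base across libraries. Of 624 distinct edges of peaks in the host gene windows, 16 (2.56%) were used in all 6 untreated libraries, against 2.08% of 623763 edges over the genome. Of 9307 restriction sites in promoter windows, 321 held an edge in all 6 libraries. Among all 6-base stretches of these windows it was 2188 of 10260395 (0.0213%), a far smaller share. Among separate stretches under peaks in the host gene windows, 33 of 90 (36.7%) were present in all 6 untreated libraries, against 24.2% of 99429 stretches over the genome. Present in all 3 shTDP43 libraries and in no shNC library were 0 of 90, against 0.258% over the genome. The reverse held for 2 of 90 (2.22%), against 1.27% over the genome, one at the start of SNHG21 (chr15:82750129-82751046) and one before SNHG29 (chr17:16437860-16438480).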
